A study of Caenorhabditis elegans with 6 samples.

Results

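The genes of programmed cell death and corpse engulfment in Caenorhabditis elegans were followed through 6 RNA sequencing libraries of sorted embryonic cells. The set holds the 10 genes egl-1, ced-9, ced-4, ced-3, ced-1, ced-6, ced-2, ced-5, ced-12 and ced-10, taken by name from the 47063 gene rows of the table, and all 10 were found. The libraries form 3 groups of 2. The mutant BAG group holds fluorescent cells of strain FQ705, which carries the allele pmk-3(wz31) and the reporter wzIs113[Pgcy-9::GFP]. The wild-type BAG group holds fluorescent cells of strain FQ424, which carries that reporter and no pmk-3 allele in its label. The non-BAG group holds non-fluorescent cells of the same strain FQ424. All groups carry the reporter, in which the gcy-9 promoter drives green fluorescent protein in the BAG neurons, a pair of gas-sensing neurons of the head. The labels describe the marker as not depending on pmk-3 and the sorted BAG cells as more than 90% fluorescent by eye. The cells came from dissociated embryos and were sorted after about a day in culture, with propidium iodide used to leave dead cells out. The pmk-3 gene encodes a p38 MAP kinase, and the lesion of its mutant allele wz31 is not described in the labels.

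Programmed cell death in this animal runs through a short linear pathway. EGL-1, a small pro-death protein of the BH3-only kind, binds CED-9, the Bcl-2-like protein that protects cells, and so frees CED-4, the counterpart of Apaf-1, to activate the caspase CED-3. Dying cells are then eaten by their neighbours, since the worm has no dedicated phagocytes, and engulfment uses a pair of partly parallel branches. In one branch the transmembrane receptor CED-1 recognises the corpse and signals through the adaptor CED-6. In the other branch the adaptor CED-2 and the CED-5 and CED-12 proteins, which together act as an exchange factor, switch on the Rac GTPase CED-10, which rearranges actin. Transcription of egl-1 is known as the step that commits many cells to die, and ced-3 and ced-4 are known to be made in many cells that live.

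Levels below are normalized read counts, the deposited values, and changes are differences of log2(value + 1) ± SE between group means, first-named group minus second-named group. A gene is said to have risen or fallen where limma's Benjamini-Hochberg adjusted p over the 14211 tested genes was under 0.05. The study's design calls the 2 libraries of a group biological replicates without saying what was kept separate, so the p-values reflect how far these libraries lie apart. The fit gives the 3 groups 1 shared spread, though their libraries were unequally far apart. The chi-square per degree of freedom between the 2 libraries was 10.89 in mutant BAG, 32.45 in wild-type BAG and 47.59 in non-BAG cells. A library outside a comparison enters it only through the shared spread and the set of tested genes. Leaving such a library out alters the p-value and not the change. In bulk RNA of sorted cells, fewer cells that express a gene and less RNA per cell cannot be told apart. The libraries held 6181113 to 8596169 recovered reads, and each member had between 78 and 1525 reads in a library, for which counting error alone is 11.3% and 2.56%. All 10 members passed the filter on low values, and their means lay between the 62.3rd and 91.1st percentile of the tested genes. The summed value of 10 BAG marker genes was 50550 and 61050 in mutant BAG, 46370 and 50230 in wild-type BAG, and 577 and 537 in non-BAG cells. Most of the BAG sums was gcy-9, whose promoter drives the reporter used for sorting. It stood at 35900 and 45160 in mutant BAG, 32110 and 38520 in wild-type BAG, and 258.8 and 280.2 in non-BAG cells. All 10 markers, gcy-9 among them, rose in wild-type and in mutant BAG against non-BAG, where 10.2% and 16.2% of all tested genes rose. Transcripts of pmk-3 stood at 259.8 and 284 in mutant BAG, 670.6 and 584.6 in wild-type BAG, and 403.9 and 553 in non-BAG cells, and the difference of mutant from wild-type BAG, -1.2 ± 0.28, missed the threshold (limma adjusted p = 0.0784). That difference passed without either non-BAG library (limma adjusted p = 0.0329 and 0.0317), with only the groups compared (0.0298), with the replicate block (0.0279) and by DESeq2 (adjusted p = 0.0195). It did not pass in the other 12 of 17 alternatives, edgeR among them (adjusted p = 0.116).

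Of the 3 genes that promote killing, egl-1 and ced-3 fell in BAG neurons of either genotype against non-BAG cells, and ced-4 fell in mutant BAG neurons, with a lower value in wild-type BAG that did not pass. Of the protector ced-9 and the 6 engulfment genes, 1 passed the threshold in any comparison, ced-12, which was higher in mutant BAG neurons than in non-BAG cells, where limma called 25.5% of all tested genes. Mutant BAG and non-BAG cells differ in strain and pmk-3 genotype as well as in cell type. There is no mutant non-BAG group, so cell type and genotype cannot be told apart in that comparison. The sum of the 3 killing genes was 595 and 624 in mutant BAG, 568 and 835 in wild-type BAG, and 1772 and 1670 in non-BAG cells.

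Between mutant and wild-type BAG neurons, 0 of 10 members were called by limma, 0 by edgeR and 0 by DESeq2, where limma called 0.837% of all tested genes, 0.486% as higher and 0.352% as lower. The unadjusted limma p was under 0.05 for 1 member, against 15.9% of all tested genes. The groups did not overlap for 7 members, 3 of them higher (ced-9, ced-1 and ced-12) and 4 lower (ced-4, ced-3, ced-2 and ced-5), against 50.2% of all tested genes, 26% higher and 24.3% lower. The median change was -0.10 for the members and 0.02 for all genes. Between wild-type BAG and non-BAG cells 0 members rose and 2 fell, 20% of them, where 14.2% of tested genes were called, 10.2% as higher and 4.01% as lower. There 1 member was higher and 7 were lower without overlap, against 53.6% of all tested genes, 28.4% higher and 25.2% lower. The 2 falls were not both called when any 1 library was left out, where the calls over all tested genes changed too. The median change was -0.47 for the members and -0.04 for all genes, and 9 of 10 members had a negative value, ced-12 being the exception, as had 51.7% of all tested genes. Between mutant BAG and non-BAG cells 1 member rose and 3 fell, where 25.5% of tested genes were called, 16.2% as higher and 9.34% as lower. There 1 member was higher and 6 were lower without overlap, against 66.1% of all tested genes, 32.1% higher and 34% lower. The median change was -0.47 for the members and -0.09 for all genes. The 4 members were not all called when any 1 library was left out. Fewest were called without a mutant BAG library, where fewest of all tested genes were called too. The comparisons share libraries, so their counts are not separate evidence.

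**Figure D1:**
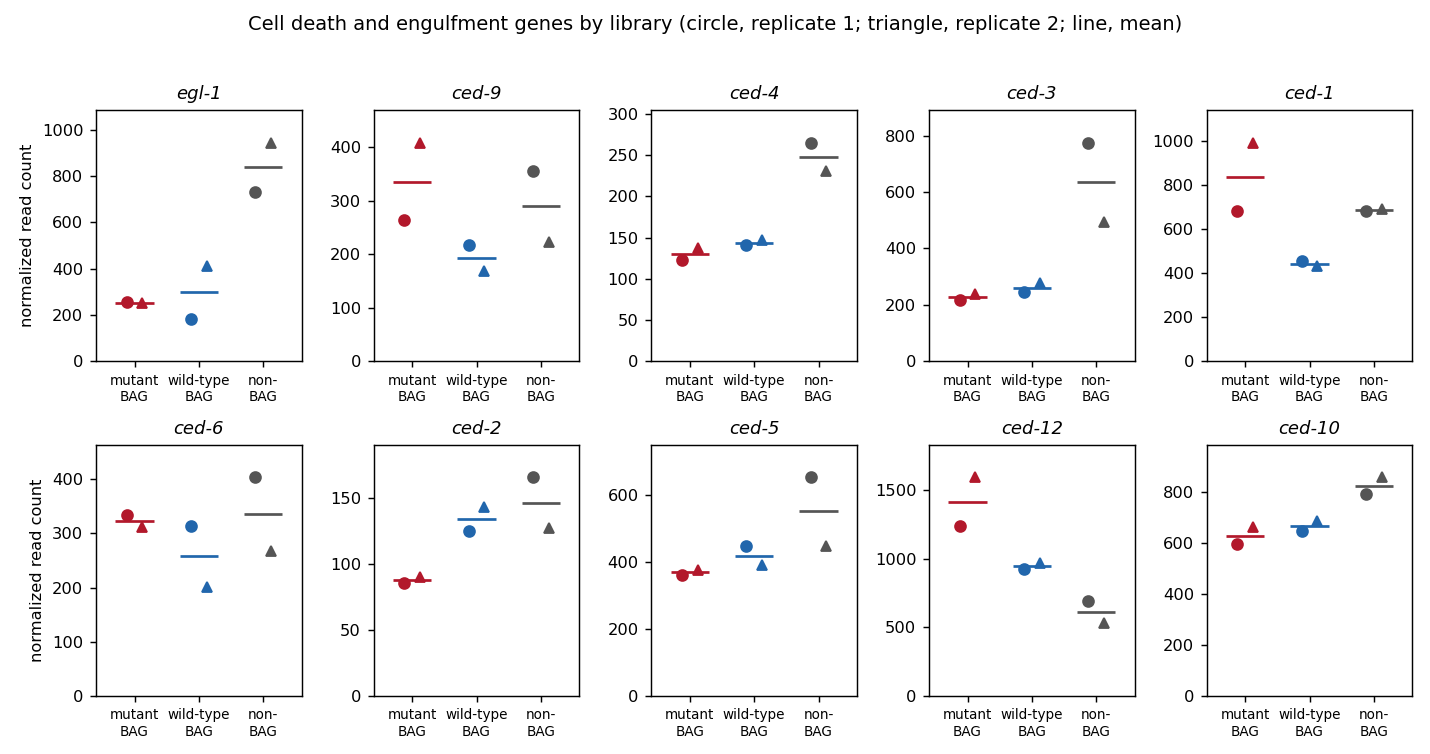
Normalized read counts of the 10 genes in the 6 libraries. Each panel is 1 gene with its own axis from 0; points are libraries, coloured by group, and lines are group means. Both non-BAG libraries lie above all 4 BAG libraries for egl-1, ced-4, ced-3, ced-10 and, narrowly, ced-5, and both lie below all 4 for ced-12.

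The trigger gene egl-1 (F23B12.9) stood at 256.6 and 250.7 in mutant BAG, 183.6 and 411.5 in wild-type BAG, and 731 and 945 in non-BAG cells. Both non-BAG libraries were above every BAG library, and the wild-type BAG libraries were farther apart than those of the other groups. The gene fell in wild-type BAG against non-BAG cells, with a change of -1.59 ± 0.38, to 0.332 of the non-BAG level (limma adjusted p = 0.0209). Its level fell by 1.71 on the log2 scale in mutant BAG against non-BAG cells (SE 0.38, limma adjusted p = 0.0098). The fall in wild-type BAG was not past the threshold without wild-type BAG replicate 1, with a change of -1.01 and an adjusted p of 0.121, nor without non-BAG replicate 2, with an adjusted p of 0.0597, nor without either mutant BAG library, with adjusted p of 0.0596 and 0.0604. The fall in mutant BAG was not past it without mutant BAG replicate 1 or 2 (limma adjusted p = 0.0744 and 0.0897). Between mutant and wild-type BAG neurons egl-1 differed by -0.12 ± 0.38, with a 95% interval of -0.97 to 0.73 (limma adjusted p = 0.914), and the value was 0.46 without wild-type BAG replicate 2.

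The caspase gene ced-3 (C48D1.2) stood at 215.6 and 236.9 in mutant BAG, 243.9 and 276.5 in wild-type BAG, and 775 and 493.5 in non-BAG cells. The 4 BAG libraries lay close together and well under both non-BAG libraries. Against non-BAG cells ced-3 fell by 1.25 on the log2 scale in wild-type BAG (SE 0.30, limma adjusted p = 0.0231), to 0.421 of the non-BAG level. It fell by 1.45 on the log2 scale in mutant BAG against non-BAG cells (SE 0.30, limma adjusted p = 0.00754), the smallest adjusted p of any member in any comparison. The fall in wild-type BAG was not past the threshold without either mutant BAG library (limma adjusted p = 0.0638 and 0.0647), either wild-type BAG library (0.112 and 0.0653) or non-BAG replicate 1 (0.102, with a change of -0.92). The fall in mutant BAG was not past it without mutant BAG replicate 1 or 2 (limma adjusted p = 0.0749 and 0.0657). Mutant and wild-type BAG neurons differed in ced-3 by -0.20 ± 0.30, with a 95% interval of -0.88 to 0.48 (limma adjusted p = 0.798).

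The gene of the caspase activator, ced-4 (C35D10.9), stood at 122.9 and 136.8 in mutant BAG, 140.7 and 147.2 in wild-type BAG, and 265 and 231 in non-BAG cells. No BAG library reached the lower non-BAG library. The gene fell by 0.93 on the log2 scale in mutant BAG against non-BAG cells (SE 0.29, limma adjusted p = 0.0446), and this call was lost when any 1 of the 6 libraries was left out, with adjusted p of 0.0583 to 0.21 and changes of -1.03 to -0.83. For wild-type BAG against non-BAG cells its change of -0.78 ± 0.29 did not pass (limma adjusted p = 0.115). Between the genotypes the difference in ced-4 was -0.15 ± 0.29, with a 95% interval of -0.81 to 0.51 (limma adjusted p = 0.848).

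The protector gene ced-9 (T07C4.8) stood at 263 and 408 in mutant BAG, 216.5 and 168.8 in wild-type BAG, and 355 and 223 in non-BAG cells. Both mutant BAG libraries were above both wild-type BAG libraries, while non-BAG cells overlapped the mutant group and lay above the wild-type BAG group. The difference of mutant from wild-type BAG was 0.77 ± 0.35, with a 95% interval of -0.01 to 1.56, and did not pass (limma adjusted p = 0.322). Against non-BAG cells ced-9 differed by -0.56 ± 0.35 in wild-type BAG and by 0.22 ± 0.35 in mutant BAG, neither past the threshold (limma adjusted p = 0.342 and 0.68). The mutant value turned to -0.10 without mutant BAG replicate 2 and to -0.12 without non-BAG replicate 2.

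The ced-9 gene is known to be made from an operon together with mev-1, which encodes a subunit of respiratory complex II. The values of mev-1 were 596 and 804 in mutant BAG, 603 and 563.8 in wild-type BAG, and 455.9 and 348.4 in non-BAG cells. For mev-1 both BAG groups were above non-BAG cells, by 0.55 ± 0.28 in wild-type BAG and 0.80 ± 0.28 in mutant BAG, without passing the threshold (limma adjusted p = 0.242 and 0.0658), and the mutant value passed without non-BAG replicate 1 (limma adjusted p = 0.0461). Per kilobase of exon, the ratio of ced-9 to mev-1 within a library was 0.25 and 0.288 in mutant BAG, 0.203 and 0.17 in wild-type BAG, and 0.441 and 0.363 in non-BAG cells. The 3 groups did not overlap in this ratio, and 2 libraries against 2 are too few for an exact test of it. No share over all pairs of genes was computed, so how often a ratio separates in this way is not known.

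In the receptor branch of engulfment, ced-1 (Y47H9C.4) stood at 684.5 and 994.7 in mutant BAG, 454 and 434.5 in wild-type BAG, and 685.5 and 690.6 in non-BAG cells. Wild-type BAG neurons had the 2 lowest values and the mutant group overlapped non-BAG cells. The difference of mutant from wild-type BAG, 0.89 ± 0.27, had a 95% interval of 0.28 to 1.51 and did not pass (limma adjusted p = 0.161); it is the 1 member with an unadjusted p under 0.05 between the genotypes. Its value was positive in each of 17 alternatives, between 0.62 and 1.16, with an adjusted p of 0.0677 to 0.702. Against non-BAG cells ced-1 differed by -0.63 ± 0.27 in wild-type BAG and 0.26 ± 0.27 in mutant BAG (limma adjusted p = 0.168 and 0.514). The adaptor gene ced-6 (F56D2.7) stood at 334 and 312.8 in mutant BAG, 313.4 and 201.8 in wild-type BAG, and 403.9 and 268.4 in non-BAG cells. All 3 groups overlapped in ced-6, and no contrast passed, with changes of 0.36 ± 0.33 for mutant against wild-type BAG, -0.39 ± 0.33 for wild-type BAG against non-BAG and -0.03 ± 0.33 for mutant BAG against non-BAG (limma adjusted p = 0.644, 0.492 and 0.962). Exons of ced-6 share 83 bases with those of wdr-37 on the opposite strand, and whether reads were counted by strand is not stated, so its level is uncertain by what wdr-37, at 95.5 to 179.8, could add.

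In the Rac branch, ced-12 (Y106G6E.5) stood at 1238 and 1596 in mutant BAG, 927 and 969 in wild-type BAG, and 689 and 531 in non-BAG cells. The groups did not overlap: non-BAG cells were lowest and mutant BAG neurons highest. Against non-BAG cells ced-12 rose in mutant BAG by 1.22 ± 0.27, to 2.32 times the non-BAG level (limma adjusted p = 0.00974), a call lost without mutant BAG replicate 2, where the change was 1.03 (limma adjusted p = 0.129). The steps between neighbouring groups, 0.65 ± 0.27 for wild-type BAG against non-BAG and 0.57 ± 0.27 for mutant against wild-type BAG, did not pass (limma adjusted p = 0.149 and 0.341). The 95% intervals of these steps were 0.04 to 1.25 and -0.04 to 1.17. Exons of ced-12 share 24 bases with those of csnk-1 on the same strand. The csnk-1 gene, which encodes a casein kinase, stood at 4047 and 4361 in mutant BAG, 3516 and 2494 in wild-type BAG, and 2348 and 1547 in non-BAG cells, so it was more abundant and ordered in the same way. The level of ced-12 is therefore uncertain, and the part of csnk-1 reads in it was not tested.

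The CrkII-like adaptor gene ced-2 (Y41D4B.13) stood at 85.2 and 89.7 in mutant BAG, 125.2 and 142.9 in wild-type BAG, and 165.7 and 127.1 in non-BAG cells. It was lowest in the mutant libraries, with no overlap with the others, while the other groups overlapped. None of its contrasts passed: -0.61 ± 0.32 for mutant against wild-type BAG, -0.12 ± 0.32 for wild-type BAG against non-BAG and -0.73 ± 0.32 for mutant BAG against non-BAG (limma adjusted p = 0.392, 0.854 and 0.128).

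The exchange factor gene ced-5 (C02F4.1) stood at 360.0 and 377 in mutant BAG, 447 and 391 in wild-type BAG, and 653 and 449 in non-BAG cells. The groups were in the order mutant BAG, wild-type BAG, non-BAG with no overlap, but upper wild-type BAG and lower non-BAG values nearly met, and no contrast passed (-0.18 ± 0.28, -0.37 ± 0.28 and -0.55 ± 0.28 in the order mutant against wild-type BAG, wild-type BAG against non-BAG and mutant BAG against non-BAG, limma adjusted p = 0.806, 0.44 and 0.18). Exons of ced-5 share 45 bases on the other strand with tax-6, a calcineurin gene, which stood at 13740 and 15000 in mutant BAG, 10470 and 10350 in wild-type BAG, and 1923 and 1330 in non-BAG cells. Reads of tax-6 counted in ced-5 would add more in BAG neurons, so the level of ced-5 is uncertain in those groups.

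The Rac gene ced-10 (C09G12.8) stood at 596 and 661 in mutant BAG, 646 and 684.5 in wild-type BAG, and 793 and 858 in non-BAG cells. Both non-BAG libraries were highest and the BAG groups overlapped. Its changes against non-BAG cells were -0.31 ± 0.25 in wild-type BAG and -0.39 ± 0.25 in mutant BAG (limma adjusted p = 0.462 and 0.27), and mutant and wild-type BAG differed by -0.08 ± 0.25, with a 95% interval of -0.64 to 0.47 (limma adjusted p = 0.907). The close paralog rac-2 was listed at 0 in 5 libraries and at 2.16 in wild-type BAG replicate 2. How reads shared by both copies were counted is not given, so ced-10 is uncertain to that extent.

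**Figure D2:**
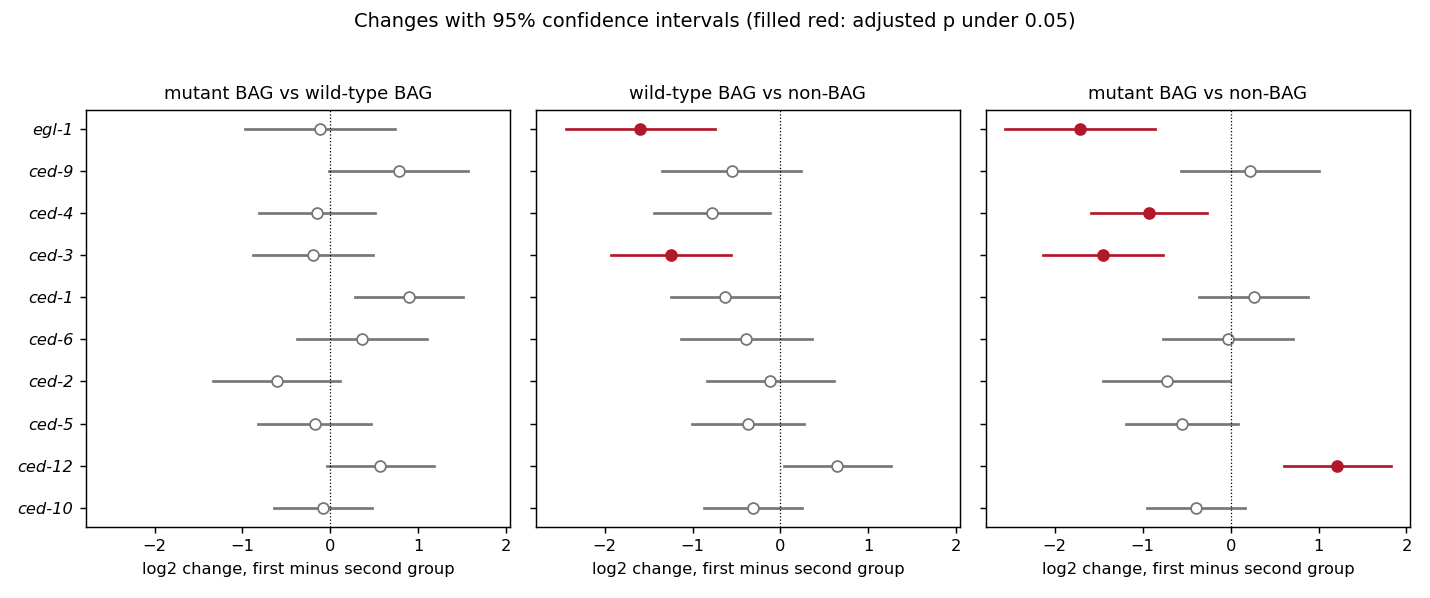
Log2 changes of the 10 genes in the 3 comparisons. Points are differences of log2(value + 1) between group means, bars are 95% confidence intervals from the fit over all genes, and filled red marks an adjusted p under 0.05. No gene is filled for mutant against wild-type BAG, egl-1 and ced-3 are filled for wild-type BAG against non-BAG, and egl-1, ced-4, ced-3 and ced-12 for mutant BAG against non-BAG.

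Levels per kilobase of exon, from the reference annotation, place the members in an order within each group. In mutant BAG neurons ced-12 was highest at 609 ± 109 counts per kilobase (SD, n = 2), ahead of egl-1 at 454 ± 7.43 and ced-10 at 378.5 ± 27.7, and ced-4 and ced-5 were lowest at 67.2 ± 5.11 and 65.3 ± 2.15. In wild-type BAG neurons egl-1, ced-12 and ced-10 led with 532 ± 288, 408 ± 12.6 and 400.5 ± 16.4 counts per kilobase and their ranges overlapped, while ced-4 and ced-5 were again lowest at 74.5 ± 2.39 and 74.2 ± 7.02. In non-BAG cells egl-1 stood alone at 1499 ± 271 counts per kilobase, and ced-10 followed at 496.9 ± 27.8. Below them ced-12, ced-3, ced-9 and ced-6, at 262 ± 47.9, 249 ± 78.1, 225 ± 72.7 and 199 ± 56.7, overlapped from each to the next. The caspase gene ced-3 was thus 4th of 10 in non-BAG cells and 7th of 10 in both BAG groups, where it stood at 88.7 ± 5.9 in mutant BAG and 102 ± 9.03 in wild-type BAG.

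Ratios within a library do not depend on how libraries are scaled. Per kilobase, the ratio of ced-3 to ced-9 was 0.413 and 0.292 in mutant BAG, 0.567 and 0.825 in wild-type BAG, and 1.1 and 1.11 in non-BAG cells. The 3 groups did not overlap, with the executioner lowest against the protector in mutant BAG neurons. Neither gene was called between mutant and wild-type BAG. The ratio of ced-3 to ced-4 was 1.33 and 1.31 in mutant BAG, 1.31 and 1.42 in wild-type BAG, and 2.21 and 1.62 in non-BAG cells. There the BAG groups overlapped and both lay under non-BAG cells. The ratio of ced-4 to ced-9 was 0.311 and 0.223 in mutant BAG, 0.432 and 0.58 in wild-type BAG, and 0.497 and 0.687 in non-BAG cells. For ced-4 the mutant group was apart and the others overlapped. The ratio of egl-1 to ced-9 was 2.24 and 1.41 in mutant BAG, 1.95 and 5.61 in wild-type BAG, and 4.73 and 9.74 in non-BAG cells. All mutant values of that ratio lay under the non-BAG values, and the wild-type BAG values overlapped both groups. In the Rac branch the ratio of ced-12 to ced-2 was 6.84 and 8.37 in mutant BAG, 3.49 and 3.19 in wild-type BAG, and 1.96 and 1.97 in non-BAG cells, again with no overlap. For ced-1 to ced-6 the ratio was 0.71 and 1.10 in mutant BAG, 0.502 and 0.746 in wild-type BAG, and 0.588 and 0.891 in non-BAG cells, with overlap. These ratios are descriptions with 2 libraries a group, and no share over all pairs of genes was computed.

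**Figure D3:**
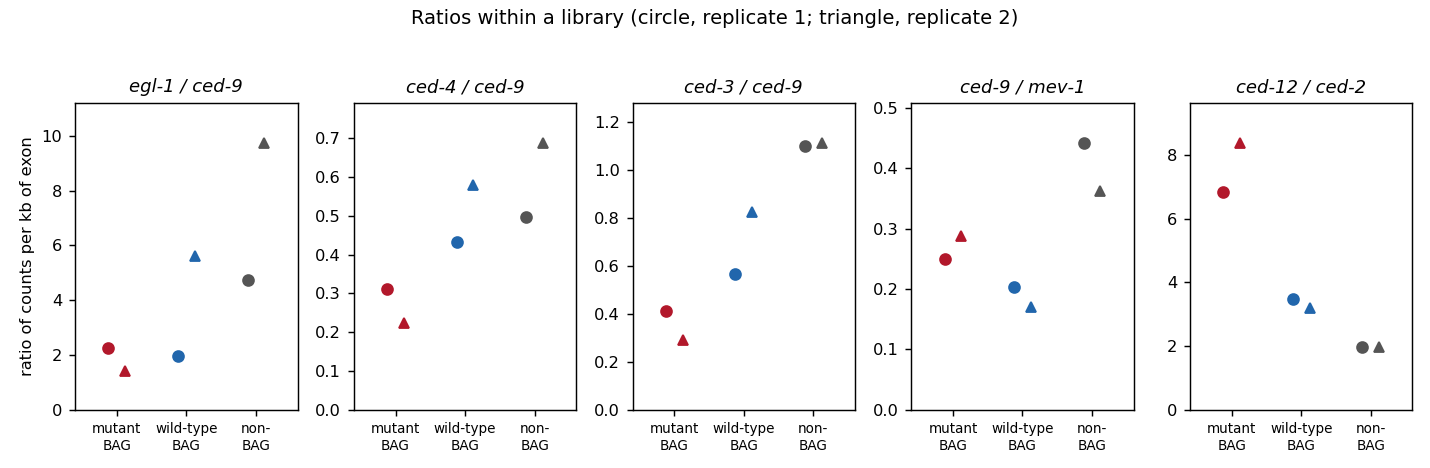
Ratios of normalized counts per kilobase of exon within each library. Each panel is 1 pair of genes with its own axis from 0, and points are libraries by group. The ratio of ced-3 to ced-9 is 0.292 to 0.413 in mutant BAG, 0.567 to 0.825 in wild-type BAG and 1.1 to 1.11 in non-BAG cells.

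The gene with the smallest adjusted p, ced-3, was compared with 5927 other tested genes of mean 100 or more for likeness of profile over the 6 libraries. The highest Pearson correlations of log2 values were those of cks-1 (r = 0.994), lin-36 (r = 0.994) and C27F2.8 (r = 0.992). As an example, cks-1 stood at 147.7 and 155.2 in mutant BAG, 203.7 and 225.5 in wild-type BAG, and 918 and 477 in non-BAG cells. The points are 6 libraries in 3 groups, so the values describe these libraries. Markers of dividing cells moved with the killing genes: the sum of 13 cell division genes was 2049 and 2414 in mutant BAG, 2561 and 3146 in wild-type BAG, and 8647 and 5594 in non-BAG cells, and none of the 13 was at 0. Of the 13 genes 9 fell in wild-type BAG against non-BAG, where 4.01% of all tested genes were called lower. In mutant BAG against non-BAG 10 fell, where 9.34% of all tested genes were called lower. Coelomocyte markers moved the same way, with sums over 4 genes of 48.5 and 58.7 in mutant BAG, 58.5 and 78.3 in wild-type BAG, and 720 and 465 in non-BAG cells. Of 8 body wall muscle markers 7 fell and unc-54 rose in both BAG groups against non-BAG cells. Of all tested genes 4.01% fell and 10.2% rose in wild-type BAG, and 9.34% fell and 16.2% rose in mutant BAG. The unc-54 gene, which encodes the major myosin heavy chain, stood at 41710 and 46590 in mutant BAG, 36220 and 33250 in wild-type BAG, and 7237 and 6443 in non-BAG cells. It thus held most of the summed value of that list in the BAG libraries but not in the non-BAG libraries; the sums were 45700 and 50330 in mutant BAG, 40000 and 36780 in wild-type BAG, and 22210 and 17830 in non-BAG cells. Sums over 10 pan-neuronal markers were 37370 and 37580 in mutant BAG, 33850 and 31520 in wild-type BAG, and 7989 and 7518 in non-BAG cells. Summed values of 5 intestine markers stayed between 14 and 84.3 in all libraries, with elt-2 at 0 in 3 of the BAG libraries, and those of 5 germline markers were 193 and 277 in mutant BAG, 312 and 513 in wild-type BAG, and 406 and 834 in non-BAG cells, with overlap; nos-2 alone of these was at 0 in the 4 BAG libraries. Sums over 5 glia markers were 422 and 566 in mutant BAG, 527 and 699.5 in wild-type BAG, and 331 and 357 in non-BAG cells, and of these kcc-3 rose in wild-type BAG and in mutant BAG against non-BAG (limma adjusted p = 0.00282 and 0.0319), while ptr-10 fell in wild-type BAG (limma adjusted p = 0.0365). Sums over 5 hypodermis markers overlapped, at 1563 and 1483 in mutant BAG, 890 and 2346 in wild-type BAG, and 2487 and 1736 in non-BAG cells. The part of these cell types in the levels of egl-1, ced-4, ced-3 and ced-12 was not tested.

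Genes that set the death fate or act beside the members were read in 4 further lists. Of 31 regulators of the death fate, all tested, 1 rose and 6 fell in wild-type BAG against non-BAG cells, with a median of -0.78 against -0.04 for all genes, and 30 of the 31 had a negative value, as 51.7% of all tested genes did. The 7 calls were 22.6% of the list, where 14.2% of all tested genes were called, 10.2% as higher and 4.01% as lower. The 1 gene that rose was not called when any 1 library was left out. The 4 with the smallest adjusted p were mab-5, a Hox gene (8.22 and 12.2 in wild-type BAG, 141.9 and 99.2 in non-BAG, change -3.44 ± 0.45), tra-1, the zinc-finger gene of sex determination (-2.28 ± 0.39), pal-1, a Caudal-like homeobox gene (-2.35 ± 0.41), and pig-1, a kinase gene of asymmetric division (-1.88 ± 0.34). Their limma adjusted p lay between 0.000841 and 0.00548, and the exons of pal-1 share 66 bases with metl-5 on the opposite strand. Fewer fate regulators were called without wild-type BAG replicate 2 or non-BAG replicate 1, and more without non-BAG replicate 2. Calls over all tested genes moved the same way. Against non-BAG cells 1 rose and 14 fell in mutant BAG, with a median of -1.07 against -0.09. These calls were 48.4% of the list, where 25.5% of all tested genes were called, 16.2% as higher and 9.34% as lower. The 4 with the smallest adjusted p were pig-1 (65.8 and 55.2 in mutant BAG, 310 and 236 in non-BAG, -2.15 ± 0.34), dre-1, an F-box gene that rose (1.45 ± 0.26), grp-1, an Arf exchange factor gene (-1.56 ± 0.30), and tra-1 (-1.89 ± 0.39), with limma adjusted p of 0.00176 to 0.00708. Fewer of the list were called without mutant BAG replicate 1, mutant BAG replicate 2 or non-BAG replicate 1, as were fewer of all tested genes. Calls were lost for dre-1 and grp-1 without mutant BAG replicate 2 (limma adjusted p = 0.0669 and 0.0904) and for tra-1 without mutant BAG replicate 1 (limma adjusted p = 0.0741).

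Of 26 genes of death execution and corpse DNA degradation 22 were tested; ced-13, csp-3, crn-5 and fis-1 were under the filter. None was called in wild-type BAG against non-BAG cells by limma, edgeR or DESeq2, with an unadjusted limma p under 0.05 for 3, or 13.6%, against 28.3% of all tested genes, and a median of -0.14. The most abundant members were icd-1, a gene of the nascent-chain complex (5542 and 5696 in wild-type BAG, 5364 and 5602 in non-BAG, 0.04 ± 0.26, limma adjusted p = 0.946), and crn-2, a nuclease gene (984 and 1072 in wild-type BAG, 991 and 1280 in non-BAG, -0.13 ± 0.26, limma adjusted p = 0.787). For mutant BAG against non-BAG cells 1 gene rose and 3 fell, 18.2% of those tested. Over all tested genes 25.5% were called, 16.2% as higher and 9.34% as lower. The median change was -0.66 against -0.09 for all genes. The crn-2 gene fell, at 506.6 and 481.8 in mutant BAG (-1.19 ± 0.26, limma adjusted p = 0.00888). Exons of crn-2 share 167 bases with zhit-1 on the opposite strand, so its level is uncertain. The nuclease gene crn-4 (-1.09 ± 0.32) and the Dicer gene dcr-1 (-1.01 ± 0.28) fell as well, and the scramblase gene scrm-1 rose (0.95 ± 0.30), with limma adjusted p of 0.0352, 0.0266 and 0.0466. All 4 calls were lost without mutant BAG replicate 1 and without mutant BAG replicate 2. For crn-2 the limma adjusted p was then 0.0743 and 0.0978, for crn-4 0.163 and 0.187, for dcr-1 0.177 and 0.122, and for scrm-1 0.0867 and 0.319. Calls were also lost for dcr-1 without non-BAG replicate 1 (limma adjusted p = 0.101), for crn-4 without non-BAG replicate 2 (limma adjusted p = 0.143), and for scrm-1 without either wild-type BAG library (limma adjusted p = 0.0626 and 0.0588) or either non-BAG library (0.0993 and 0.0795).

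Of 20 engulfment partners 19 were tested, rac-2 being under the filter. In wild-type BAG against non-BAG cells 14.2% of all tested genes were called, 10.2% as higher and 4.01% as lower. Of the partners 0 rose there and 3 fell, 15.8% of those tested. They were nrf-5, a secreted lipid-binding protein gene (57.6 and 44.5 in wild-type BAG, 516.5 and 383 in non-BAG, -3.11 ± 0.39, limma adjusted p = 0.000693), the integrin alpha gene pat-2 (-1.09 ± 0.27, limma adjusted p = 0.0259) and the Frizzled gene mom-5 (-1.29 ± 0.34, limma adjusted p = 0.032). The pat-2 call was lost without either mutant BAG library (limma adjusted p = 0.0754 and 0.0769), either wild-type BAG library (0.0535 and 0.139) or non-BAG replicate 1 (0.0809). The mom-5 call was lost without the same libraries (limma adjusted p = 0.0833, 0.0839, 0.0674, 0.14 and 0.133), and its exons share 66 bases with tsp-7 on the opposite strand. Fewer partners were called without either mutant BAG library or without wild-type BAG replicate 1, and more, all lower, without non-BAG replicate 2. Calls over all tested genes moved the same way in number. Without non-BAG replicate 1 the balance of directions among the called partners turned, and fewer of all tested genes were called lower there as well. Against non-BAG cells 1 partner rose and 5 fell in mutant BAG, 31.6% of those tested. Over all tested genes 25.5% were called there, 16.2% as higher and 9.34% as lower. The partner with the smallest adjusted p was nrf-5, at 41 and 24.1 in mutant BAG (-3.78 ± 0.39, limma adjusted p = 0.000144). The integrin beta gene pat-3 fell as well (-1.61 ± 0.28), as did pat-2 (-1.49 ± 0.27) and mom-5 (-1.56 ± 0.34). Their limma adjusted p were 0.00266, 0.00371 and 0.00888. Fewer partners were called without mutant BAG replicate 1 or 2, as were fewer of all tested genes. Calls were lost without mutant BAG replicate 2 for pat-3, pat-2 and mom-5 (limma adjusted p = 0.0521, 0.0697 and 0.0852) and without mutant BAG replicate 1 for mom-5 (limma adjusted p = 0.074). The integrin genes are also known as muscle attachment genes, and 7 of the 8 muscle markers above fell beside them, whose part in these values was not tested.

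Of 28 genes of corpse phagosome maturation 27 were tested; slc-36.1 matched no row. The Rab2 gene unc-108 stood at 3580 and 3209 in wild-type BAG against 1473 and 820 in non-BAG cells and rose by 1.62 ± 0.31 (limma adjusted p = 0.00744). The dynamin gene dyn-1 rose by 0.96 ± 0.28 in the same comparison (limma adjusted p = 0.0474). Both genes are also known for work at synapses or on neuronal vesicles. Against non-BAG cells unc-108 and dyn-1 also rose in mutant BAG, by 1.77 ± 0.31 and 1.29 ± 0.28 (limma adjusted p = 0.00317 and 0.00825), and the cathepsin L gene cpl-1 fell by 1.86 on the log2 scale (SE 0.47, limma adjusted p = 0.0186), at 181 and 103.5 in mutant BAG and 780 and 320 in non-BAG cells. In wild-type BAG the dyn-1 call was lost without either mutant BAG library (limma adjusted p = 0.128 and 0.129), either wild-type BAG library (0.219 and 0.0947) or non-BAG replicate 2 (0.0991). In mutant BAG the unc-108, dyn-1 and cpl-1 calls were lost without mutant BAG replicate 2 (limma adjusted p = 0.0523, 0.101 and 0.17), the dyn-1 call without mutant BAG replicate 1 (0.0768) and the cpl-1 call without non-BAG replicate 1 (0.0834). The counts were 2 in wild-type BAG and 3 in mutant BAG in the main fit, and they moved with 1 library left out, as did the counts over all tested genes. They are 7.41% and 11.1% of the tested list, below the 14.2% and 25.5% of all tested genes called. Of all tested genes 10.2% and 16.2% were called as higher, and 4.01% and 9.34% as lower.

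In mutant against wild-type BAG neurons no gene of the 4 lists was called by limma or by edgeR. The unadjusted limma p was under 0.05 for 4 fate regulators, 5 execution genes, 4 engulfment partners and 4 phagosome genes, which are 12.9%, 22.7%, 21.1% and 14.8% of those tested, against 15.9% of all tested genes. DESeq2 called 2, 3, 0 and 1 of them, where it called 671 of all 14211 tested genes. Without either non-BAG library limma called some genes of each list, and more of all tested genes than the 119 of the main fit. The list genes with the smallest adjusted p, chosen after their values were seen, were bec-1, an autophagy gene (296 and 313 in mutant BAG, 893 and 780 in wild-type BAG, -1.45 ± 0.28, limma adjusted p = 0.0507), mab-5 (44.2 and 48.3 in mutant BAG, 8.22 and 12.2 in wild-type BAG, 2.10 ± 0.45, limma adjusted p = 0.0682) and the mitofusin gene fzo-1 (208 and 217 in mutant BAG, 497 and 465 in wild-type BAG, -1.17 ± 0.26, limma adjusted p = 0.0737). Among the 2 most abundant genes of each list were crn-2, at 506.6 and 481.8 in mutant BAG against 984 and 1072 in wild-type BAG (-1.05 ± 0.26, limma adjusted p = 0.092), and grp-1, at 1249 and 957 in mutant BAG against 2054 and 2598 in wild-type BAG (-1.08 ± 0.30, limma adjusted p = 0.129). Both passed without non-BAG replicate 1 (limma adjusted p = 0.0408 and 0.0465) and without non-BAG replicate 2 (limma adjusted p = 0.0384 and 0.0448). The other abundant genes had these values: ces-2 at 0.69 ± 0.62, icd-1 at -0.08 ± 0.26, the exchange factor gene unc-73 at -0.02 ± 0.33, the epsin gene epn-1 at 0.40 ± 0.40, dyn-1 at 0.33 ± 0.28 and unc-108 at 0.14 ± 0.31.

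**Figure D4:**
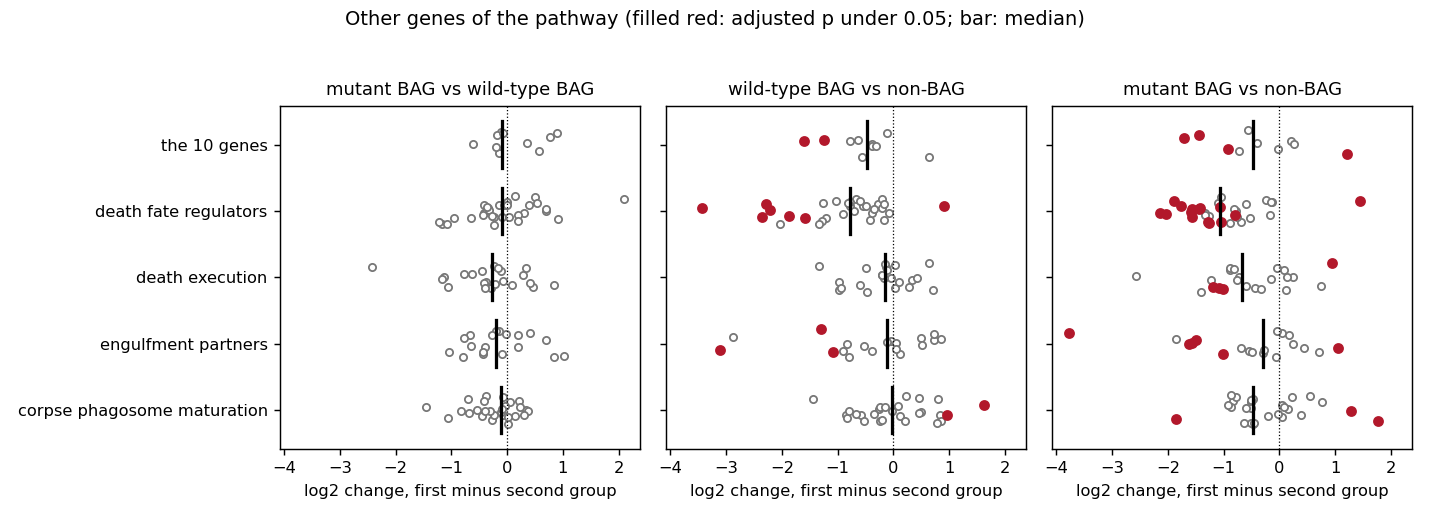
Log2 changes of the 10 genes and of 4 other lists of cell death and engulfment genes in the 3 comparisons. Each point is 1 tested gene, filled red where the adjusted p was under 0.05, and the black bar is the median of the list. For the death fate regulators the median lies at -0.78 in wild-type BAG against non-BAG and at -1.07 in mutant BAG against non-BAG.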

How the data were processed

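Libraries of 100 base paired-end reads were made from sorted cells with an amplifying kit, per the labels' protocols. The deposited table holds a normalized count (a signal, not raw reads) for each gene in each library; STAR, HTSeq and DESeq2 are the tools listed, per the submitters' processing notes, while versions, genome build, annotation and strand use are unstated: not given in the sources used here. Dividing each value by that of 1 read in its library gave whole numbers for 100% of values within 0.01 of a read, and so recovered the reads. The 14211 genes reaching 10 in 2 or more libraries were tested with limma 3.58.1 (R 4.3.3). The fit had 3 residual and 6.43 prior degrees of freedom, the prior drawn from the spread of other genes. It used log2(value + 1), a trend of variance on level, and 1 fit over all 3 groups, no replicate block, two-sided, Benjamini-Hochberg over all tested genes. Low genes' changes are understated on this scale. The procedure was run on simulated counts of independent libraries, with 1 spread per gene shared by the groups. The libraries here were unequally far apart, so no conclusion is drawn from that run. Alternatives were edgeR 4.0.16 and DESeq2 1.42.0 on the recovered reads, pseudocounts, filters, scalings, the replicate block, no trend, only the groups compared, and leaving out each library in turn, where the lone library of a group takes the spread of the other groups. Exon lengths and overlaps came from the Ensembl WBcel235 annotation, which may differ from the authors'; no coordinates are given, and no sequences were at hand. The members were matched on the text before the first comma of the gene alias. From each of the 4 other lists at most 4 called genes per comparison are named, those with the smallest adjusted p, or the 2 most abundant where none was called. The 10 genes, the lists and the tests were chosen with earlier results of these data known.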

Additional observations from a re-analysis of the deposited data

How the results depend on the processing

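Counting error is at most 11.3% per member and library, so spread between the 2 libraries of a group sets the limits. TMM scaling moved the median change of all genes to 0.13 in mutant against wild-type BAG, and quantile scaling to -0.14 and -0.23 in wild-type and mutant BAG against non-BAG; the falls of egl-1, ced-4 and ced-3 and the rise of ced-12 kept their direction in all 17 alternatives. Genes called in mutant against wild-type BAG numbered 119 (69 higher, 50 lower). They were 137 with TMM scaling (94 higher, 43 lower), 160 by edgeR (118 higher, 42 lower), 221 with a pseudocount of 8, 685 with the replicate block, 1 with no trend, 599 with only the groups compared, 671 by DESeq2, and 0 to 520 with 1 library left out. The count of members in that comparison was 0 in each alternative. In wild-type BAG against non-BAG the 2014 genes were 1211 with only the groups compared and 1211 to 2190 with 1 library left out; the 2 members were 0 with no trend, 0 with only the groups compared and 0 to 1 with 1 left out. In mutant BAG against non-BAG the 3628 genes were 1376 to 3730 with 1 left out, and the 4 members were 1 with no trend and 0 to 3 with 1 left out. The ced-4 call there held in 5 of 17 alternatives and was lost by edgeR and DESeq2 (adjusted p = 0.0639 and 0.0603). With no trend the egl-1 and ced-12 calls were lost as well (limma adjusted p = 0.0516 and 0.054). No label says that a replicate number marks a shared culture or day. Deviations of same-numbered libraries correlated over genes at 0.46 for wild-type BAG and non-BAG, which come from the same strain, so a shared source is possible for that pair of groups; they correlated at 0.0458 for mutant and wild-type BAG and at 0.00403 for mutant BAG and non-BAG. With the replicate block the members called were 0, 2 and 4 in mutant against wild-type BAG, wild-type BAG against non-BAG and mutant BAG against non-BAG. In the order fate regulators, execution, engulfment partners, phagosome, the block gave 2, 3, 1 and 1 calls in the first of these (0 in each without it), 14, 0, 6 and 6 in the second (7, 0, 3 and 2 without it) and 22, 7, 6 and 7 in the third (15, 4, 6 and 3 without it). Over all 14211 tested genes the block gave 685, 2847 and 4686 calls in the 3 comparisons, against 119, 2014 and 3628 without it.

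Signs turned only for values that were not called. In mutant against wild-type BAG TMM scaling and edgeR gave 0.028 and 0.024 for ced-10, 0.033 and 0.031 for icd-1, and 0.087 and 0.060 for unc-73. With 1 library left out the values ran from -0.70 to 0.46 for egl-1, -0.20 to 0.046 for icd-1, -0.23 to 0.19 for unc-73, -0.13 to 1.51 for ces-2 and -0.020 to 0.83 for epn-1. In wild-type BAG against non-BAG quantile scaling gave -0.14 for icd-1, and with 1 library left out the values ran from -0.31 to 0.073 for ced-2 and -0.32 to 0.051 for crn-2. In mutant BAG against non-BAG TMM scaling and edgeR gave 0.057 and 0.034 for ced-6, and with 1 library left out the values ran from -0.32 to 0.27 for ced-6, -0.0074 to 0.53 for ced-1 and -0.12 to 0.55 for ced-9. The cause was not tested.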
